A study of Trichoderma reesei with 4 samples.

Results

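Gene expression late in conidiation was compared with that early in conidiation in Trichoderma reesei, a filamentous ascomycete known for its secreted cellulases. The comparison was that of cultures at 9 h of sporulation with cultures at 3 h, and its members were all 9126 of the 9126 features on the array. The strain in every group was QM9414, labelled as a mutant with low cellulase production. Cultures grew on malt extract agar under a layer of cellophane, and sporulating mycelia were scraped off at 3, 6 or 9 h. Each time was a single group of 2 biological replicas, and a mycelium group at 0 h was sampled in the same series. The 0 h arrays entered neither the differences nor the errors given here. The deposited values of the other times may still have been normalized together with them. The array, read in 1 colour (Cy3), covered the predicted genes, and total RNA was hybridised to it. No culture kept from sporulating was sampled at the same hours, so time of sporulation and time in culture cannot be told apart.

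Conidia are asexual spores that fungi of this kind raise on branched aerial hyphae. In Trichoderma they become green with pigment and are coated with hydrophobins, small secreted proteins that make surfaces water-repellent. The same fungus secretes cellulases, which cut cellulose chains, beta-glucosidases, which split the resulting cellobiose to glucose, and hemicellulases, which act on xylan and mannan. These enzymes are controlled by the activator Xyr1 and the carbon catabolite repressor Cre1.

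Levels are log2 expression values averaged over the 2 replicas, and an SD is that of the 2 replicas. The values of the replicas follow from the mean and the SD and are given as such. Median levels over all features were 11.53 at 3 h and 11.56 at 9 h, and the median SD was 0.0992 and 0.0821. A difference is always 9 h minus 3 h on the log2 scale. Its adjusted p is that of the moderated test in limma, corrected over all 9126 features by the Benjamini-Hochberg method, and the arrays of 3, 6 and 9 h gave the spread. A gene is said to have risen or fallen where the adjusted p was under 0.05 and the change at least 2-fold. The 3 features for the MAT1-1 mating type, which this strain is not expected to carry, lay between 4.0 and 5.53 at these times and serve as the background range. The middle of the 3 was at 4.19 at 3 h and 4.21 at 9 h, so the upper end of the range rests on 1 feature at each time.

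By this rule 275 features (3.01% of all) rose from 3 h to 9 h and 319 (3.50%) fell. The median difference over all features was 0.02. Changes of 4-fold or more were seen in 60 features that rose and 74 that fell, and 16-fold changes in 7 and 12. With no fold threshold, 1223 features (13.4%) stood higher at 9 h and 1158 (12.7%) stood lower by adjusted p, so the balance between the directions depended on the fold threshold. The replica values of the 2 times did not overlap in any of the 594 features called, and they also failed to overlap in 5849 of all features (64.1%), 3128 (34.3%) with the higher values at 9 h and 2721 (29.8%) with the lower. In 186 of the features that rose and 240 of those that fell, even the nearest replicas of the 2 times lay 2-fold apart. Without the features of low mean level, 155 rose and 213 fell. Background levels were reached at 3 h by 20 of the features that rose and at 9 h by 20 of those that fell, which leaves the size of their changes inexact.

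**Figure D1:**
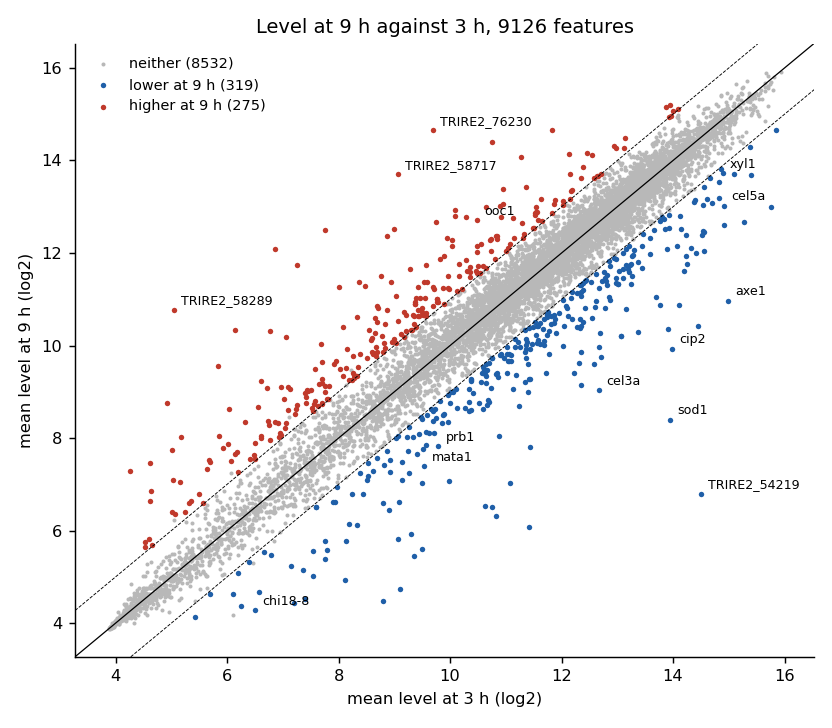
Mean log2 level at 9 h (vertical axis) against 3 h (horizontal axis), 1 point per feature. Red points (275) rose and blue points (319) fell, grey points did neither, the solid line marks equal levels and the dashed lines a 2-fold difference. The gene sod1 and TRIRE2_54219 lie farthest below the diagonal and TRIRE2_58289 farthest above it.

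Most of the named genes for enzymes that break down plant polymers stood higher early than late. The lists held only genes with a symbol, and no xylanase gene was among them, so they do not cover all enzymes of this kind. Of the 17 named genes of the cellulase, beta-glucosidase and hemicellulase lists, 11 fell from 3 h to 9 h (3.50% of all features did), 0 rose (3.01%) and 6 did neither, with a median difference of -1.64. The cellulase list held 9 genes, of which 7 fell, and its median was -2.12. Because the RNA came from whole sporulating mycelium, fewer cells of a type and less RNA per cell cannot be told apart, here or in any result that follows. That these genes were raised at 3 h against mycelium was known from the same arrays when the lists were made, so their direction here is not independent of that choice.

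The glucuronoyl esterase gene cip2, which is also in the hemicellulase list, showed the steepest fall of these genes. Its replicas were at 13.93 and 14.05 at 3 h, about 9.07 on average at 6 h, and 9.88 and 9.98 at 9 h. The 9 h values lay far under those of 3 h, by -4.06 ± 0.11 (SE), a 16.7-fold difference (limma adjusted p = 3.10e-06). The gene cip1, for a protein with a cellulose-binding module, went from 14.01 and 14.20 to 10.75 and 11.00, 9.34-fold lower (limma adjusted p = 2.47e-05). Its replicas, too, kept apart between the times by much more than they differed within one.

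Among the endoglucanases, which cut within the cellulose chain, cel7b fell most. Its replicas were at 13.00 and 13.13 at 3 h and at 10.02 and 10.39 at 9 h, a difference of -2.86 ± 0.14 (SE; limma adjusted p = 3.20e-05). The endoglucanase genes cel12a and cel5a differed by -2.12 and -1.89, and both fell. The level of cel5a was 14.92 ± 0.17 (SD, n = 2) at 3 h and 13.03 ± 0.09 at 9 h. For the lytic polysaccharide monooxygenases, copper enzymes that oxidise cellulose, the differences were -2.89 for cel61b and -1.63 for cel61a. Neither the cellobiohydrolase gene cel7a nor the endoglucanase gene cel5b fell. The replicas of cel7a were at 15.45 and 15.55 at 3 h and at 15.0 and 15.15 at 9 h, and its difference of -0.43 passed the adjusted p (0.0341 by limma) but not the fold threshold. At 13.79 ± 0.037 and 13.89 ± 0.21, cel5b overlapped between the times (limma adjusted p = 0.620).

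All 5 beta-glucosidase genes were lower at 9 h by adjusted p, as were 12.7% of all features, and 3 of them fell 2-fold or more, as did 3.50%. The replicas of cel3a, which encodes the main secreted beta-glucosidase, were at 12.63 and 12.71 at 3 h and at 9.00 and 9.07 at 9 h, a 12.4-fold difference (limma adjusted p = 5.79e-06). The gene cel3c fell by 1.64 and cel1a by 1.03 log2 units. Just short of the threshold, cel1b differed by -0.99 (limma adjusted p = 0.00154) and passed it when each time was centred on its median. The difference of cel3b was -0.74. In cel3b, little of that difference was present at 6 h, when its level was 14.10 against 14.20 at 3 h and 13.46 at 9 h.

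In the hemicellulase list of 4 genes, cip2 and the acetyl xylan esterase gene axe1 fell. The replicas of axe1 were at 14.95 and 15.02 at 3 h and at 10.88 and 11.06 at 9 h, a 16.2-fold difference (limma adjusted p = 7.24e-06). The second acetyl xylan esterase gene, axe2, differed by -0.48 and did not reach 2-fold. The mannanase gene man5a, at 11.83 ± 0.14 and 10.85 ± 0.14, differed by -0.98 (limma adjusted p = 0.00135), and it passed 2-fold with median centring.

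The lowest mean of most of these genes was not at 9 h. In 14 of the 17, and in 10 of the 11 that fell, the 6 h mean was below the 9 h mean. These counts compare means, and the step from 6 h to 9 h was not tested. They include axe2, with nearly equal means of 13.5544 and 13.5556. They also include cel61a, whose replicas overlapped, at 12.36 and 12.50 at 6 h and at 12.45 and 12.58 at 9 h. For cip2 the level at 6 h was 9.07 against 9.93 at 9 h, for cel5a 11.82 against 13.03 and for cel12a 11.39 against 12.39. The exception among those that fell was cel1a, at 13.66 at 6 h and 13.63 at 9 h. The difference between 9 h and 3 h is therefore smaller, for the 10 that fell this way, than their difference between 6 h and 3 h. Over all 319 features that fell, 54 had a 6 h mean below the 9 h mean. For features that were not called, no such count was made.

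**Figure D2:**
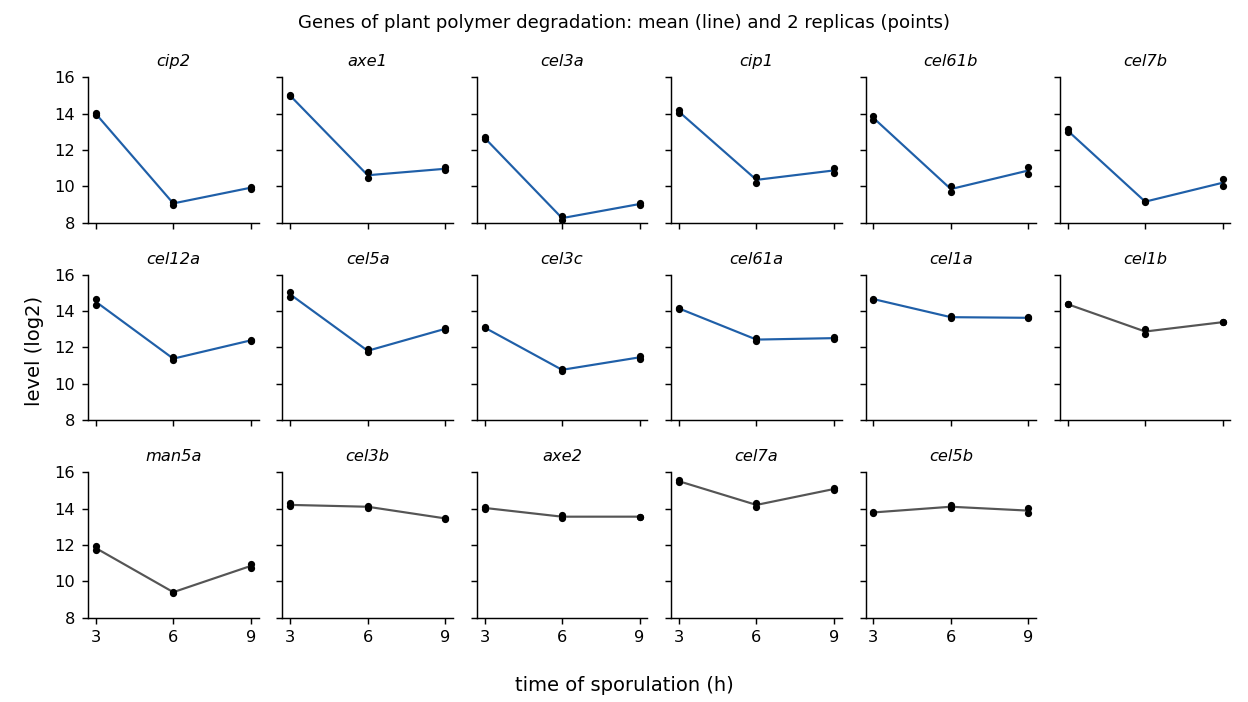
Log2 level (vertical axes) at 3, 6 and 9 h of sporulation (horizontal axes) for the 17 named genes of plant polymer degradation, ordered by their difference between 9 h and 3 h. Lines join the means, points are the 2 replicas, blue lines mark the 11 genes that fell and grey lines the 6 that did not; 14 of the 17 have a lower mean at 6 h than at 9 h.

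None of the 6 listed regulators of cellulase genes rose or fell by the rule used here. The list holds the activator gene xyr1 and the repressor gene cre1 alike. Its median was 0.11, against 0.02 over all features. The level of xyr1 was 13.54 and 13.56 in the replicas of 3 h and 13.18 and 13.27 in those of 9 h. The groups did not overlap, but the difference of -0.32 missed the threshold (limma adjusted p = 0.0598). Its 95% interval, not corrected for the number of features, reached from -0.57 to -0.08. The 6 h mean of xyr1, 13.05, was below its 9 h mean of 13.23, as in most of the enzyme genes. Whether xyr1 moved with those genes was not tested. The CCAAT-binding factor gene hap2 was higher by adjusted p alone (0.45, limma adjusted p = 0.0231). The repressor gene cre1 was at 14.77 ± 0.007 and 14.97 ± 0.034, a difference of 0.20 (limma adjusted p = 0.165). Differences of ace1, hap3 and hap5 were 0.21, 0.02 and 0.00.

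In the polyol and sugar list, xyl1 and xdh1 fell. They are described here with lad1 for their enzymes' roles, and all 3 were picked from the list after their values were seen. In fungi, D-xylose reductase and xylitol dehydrogenase carry D-xylose to D-xylulose, and L-arabinitol dehydrogenase serves the parallel path from L-arabinose. The D-xylose reductase gene xyl1 was at 14.84 and 14.94 at 3 h and at 13.71 and 13.75 at 9 h, a difference of -1.16 (limma adjusted p = 2.64e-04). The xylitol dehydrogenase gene xdh1 fell by 1.11, from 10.69 and 11.15 to 9.73 and 9.89 (limma adjusted p = 0.00364). With the ordinary test in place of the moderated one the call of xdh1 was lost. The L-arabinitol dehydrogenase gene lad1, at 14.33 ± 0.01 and 13.37 ± 0.074, differed by -0.95 (limma adjusted p = 6.45e-04) and ended just short of 2-fold.

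Of the 10 genes in the list, 2 fell (3.50% of all features did) and 0 rose. Without the fold threshold, 5 of the 10 passed as lower, against 12.7% of all features, and 2 as higher, near the 13.4% of all features. The galactokinase gene gal1 and the galactose-1-phosphate uridylyltransferase gene gal7 were among the lower ones, at -0.63 and -0.51, while gal10, the epimerase gene of the same path, differed by -0.32 and did not pass. The higher ones were gld1 at 0.58 and lxr1 at 0.56. The submitters used the D-mannitol dehydrogenase LXR1 as the marker enzyme of conidiation. Its gene lxr1 was at 13.25 and 13.42 at 3 h and at 13.80 and 13.98 at 9 h (limma adjusted p = 0.0170). These values did not overlap, and the 6 h level of 13.94 was as high as that of 9 h.

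The hydrophobin genes did not separate the late from the early culture. The level of hfb2 was 14.19 and 14.32 at 3 h and 14.34 at 9 h in each replica, and that of hfb3 was 14.13 and 14.16 at 3 h and 13.94 and 14.07 at 9 h. Their differences of 0.08 and -0.14 did not pass (limma adjusted p = 0.609 and 0.436). The 95% intervals of these differences reached from -0.16 to 0.33 for hfb2 and from -0.42 to 0.14 for hfb3, so a 2-fold change of either lay outside them. The level of hfb1 was 7.72 ± 0.46 at 3 h and 8.04 ± 0.12 at 9 h, and its replicas overlapped between the times.

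The gene sod1, for a superoxide dismutase, had the largest fall of any gene with a symbol. Its replicas were at 13.89 and 14.01 at 3 h and at 8.31 and 8.49 at 9 h. These groups were 46.8-fold apart (difference -5.55 ± 0.20, SE; limma adjusted p = 1.00e-05). Most of the fall, 83.6%, was present at 6 h, when the level was 9.31 ± 0.46. The other gene of the oxidative stress list, the catalase gene cat1, lay within the background range at both times.

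The serine protease gene prb1 fell 3.9-fold, from 9.69 and 9.89 to 7.81 and 7.84 (limma adjusted p = 2.58e-04). The gene mata1, which carries the symbol of a mating-type gene, fell from 9.19 and 9.88 to 7.15 and 7.63 (limma adjusted p = 0.00113). Its replicas had an SD of 0.49 at 3 h, and the ordinary test did not call it. Among the 20 genes of chitin degradation 1 fell, the chitinase gene chi18-8, a share near the 3.50% of all features. Its replicas were at 6.39 and 6.60 at 3 h and at 4.27 and 4.29 at 9 h, the latter within the background range, so the size of its change is not exact. By adjusted p alone 5 of the 20 were lower (12.7% of all features) and none was higher (13.4%). The genes nag1 and nag2, for N-acetylglucosaminidases, were among the 5, at -0.79 and -0.57. The list median was -0.15. Of the 20 genes, 3 lay within the background range at both times, where a fall could not be seen.

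Ribosomal protein genes went in the opposite direction by small amounts. Of the 42 genes 41 had a positive difference, with a median of 0.40 and a range from -0.03 for rps30 to 0.93 for rpl5. By adjusted p alone 20 of the 42 stood above their 3 h level and 0 below it, where 13.4% of all features stood above. None of the 42 reached 2-fold. The level of rpl5 was 13.17 and 13.25 at 3 h and 13.95 and 14.33 at 9 h (limma adjusted p = 0.00352). Next came rpl15 at 0.86 and rpl12 at 0.84. Groups of replicas did not overlap in 38 of the 42, all with the higher values at 9 h, where 34.3% of all features showed this.

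The remaining lists held 0 genes that rose and 0 that fell. In the list of protein folding and secretion, 2 of 12 were lower by adjusted p alone, near the 12.7% of all features. They were the protein disulfide isomerase gene pdi1 at -0.67 (limma adjusted p = 0.00505) and bip1, for the chaperone BiP of the endoplasmic reticulum, at -0.54 (limma adjusted p = 0.0118). The replicas of pdi1 were at 14.08 and 14.13 at 3 h and at 13.41 and 13.46 at 9 h. Of 13 genes of glycolysis and acetyl-CoA metabolism 1 was higher by adjusted p alone, no more than the 13.4% of all features, and this was the isocitrate dehydrogenase gene idh2 at 0.56 (limma adjusted p = 0.0134). No gene of the proteasome and ubiquitin (7), histone (5), small GTPase (8), light response (4), signalling (11) or glycogen (3) lists passed the adjusted p by limma, and 1 of these 38, acy1, had an unadjusted p under 0.05. Differences of the light response genes ran from -0.12 for the photoreceptor gene env1 to 0.29 for the gene that the table calls phr1, and those of the signalling genes from -0.19 for the G-protein alpha subunit gene gna1 to 0.29 for the adenylyl cyclase gene acy1.

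**Figure D3:**
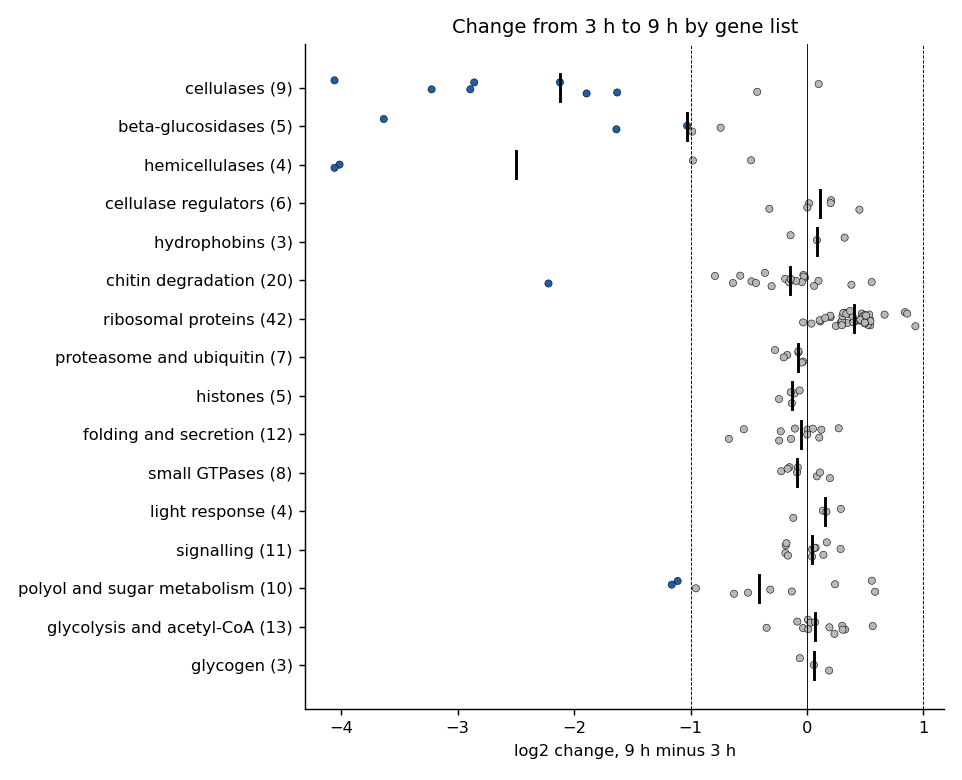
Log2 difference, 9 h minus 3 h (horizontal axis), for each gene of the lists with 3 or more members (vertical axis, number of genes in brackets). Blue points fell, grey points neither rose nor fell, thick bars are list medians and dashed lines mark 2-fold; the cellulase median is -2.12 and the ribosomal protein median 0.40.

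Of the 235 features with a symbol, 17 fell (7.23%) and 1 rose (0.426%), set against 3.50% and 3.01% of all features. Of these 17, 11 were the genes of plant polymer degradation given above, so the share that fell largely repeats that result. The 10 largest rises were all in genes that carry an identifier alone. The single symbol among those that rose was ooc1, whose replicas were at 10.38 and 10.60 at 3 h and at 12.62 and 12.79 at 9 h. The 2 times were 4.66-fold apart (limma adjusted p = 1.76e-04), and the 6 h level of 10.70 was near that of 3 h. Of the 235 features with a symbol 70 lay outside the lists, and ooc1 was the 1 among them that was called.

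The largest rise of all was that of TRIRE2_58289. Its replicas were at 4.97 and 5.12 at 3 h, within the background range, and at 10.68 and 10.87 at 9 h, a difference of 5.73 ± 0.19 (SE; limma adjusted p = 6.08e-06). The gene TRIRE2_58953 followed, with 6.84 and 6.89 at 3 h and 11.93 and 12.23 at 9 h, 37.1-fold higher (limma adjusted p = 2.74e-06). In each, about the same part of the rise, 64.1% and 65.2%, was present at 6 h.

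The 10 largest rises differed in when they took place. In TRIRE2_43701, TRIRE2_112037 and TRIRE2_107949 most of the rise was over by 6 h, at 88.1%, 86.4% and 79.4%. The 3 h level of TRIRE2_112037, 4.92, lay within the background range, so its share is not exact. The level of TRIRE2_43701 was 7.76 ± 0.18 at 3 h, 11.93 ± 0.05 at 6 h and 12.49 ± 0.039 at 9 h. In 3 others, TRIRE2_58717, TRIRE2_108642 and TRIRE2_82208, the rise came after 6 h, with 23.6%, 15.7% and 14.9% of it present then. The level of TRIRE2_58717 was 9.06 ± 0.15, 10.16 ± 0.14 and 13.71 ± 0.11 at the successive times. That of TRIRE2_82208 was 6.15 ± 0.38, 6.78 ± 0.13 and 10.33 ± 0.17. Both thus stood much nearer to their 3 h than to their 9 h level at 6 h. TRIRE2_76230 and TRIRE2_73623 lay between these patterns, with 39.0% and 65.3%.

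Falls were led by TRIRE2_54219. Its replicas were at 14.48 and 14.52 at 3 h, and at 6.63 and 6.96 at 9 h, a 209-fold difference (limma adjusted p = 1.36e-06). The 6 h level of 7.27 ± 0.19 was already near that of 9 h. The gene TRIRE2_112567 fell by 5.34, from 11.36 and 11.47 to 6.05 and 6.10 (limma adjusted p = 1.36e-06). In all of the 10 largest falls more of the change lay before 6 h than after it, the lowest part being 53.0% in TRIRE2_105224. The 9 h levels of TRIRE2_112140 (4.74) and TRIRE2_108349 (4.48) lay within the background range. The other members of the 10 were sod1 and cip2, TRIRE2_76210 at -4.52, TRIRE2_56314 at -4.25 and TRIRE2_108655 at -4.04.

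**Figure D4:**
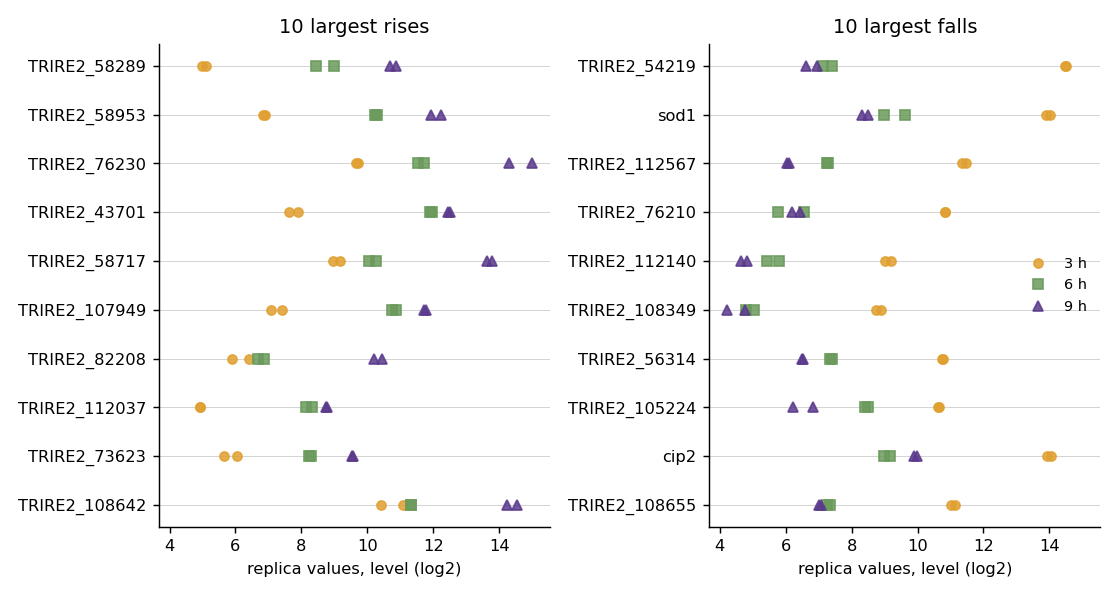
Replica values of the log2 level (horizontal axes) for the 10 largest rises (left) and the 10 largest falls (right) from 3 h to 9 h, 1 gene per line. Circles are 3 h, squares 6 h and triangles 9 h, 2 replicas each; the 6 h squares of TRIRE2_58717, TRIRE2_108642 and TRIRE2_82208 lie near their 3 h circles, and those of the falls nearer to 9 h.

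Over all features called, the 6 h mean lay between the means of 3 h and 9 h in 207 of 275 that rose and in 259 of 319 that fell. It was beyond the 9 h mean in 56 and 54, and on the far side of the 3 h mean in 12 and 6. The part of the change present at 6 h had a median of 74.4% in the features that rose and 71.1% in those that fell. Its middle range, from the 25th to the 75th percentile, was 47.2% to 95.6% and 50.2% to 92.6%. Among changes of at least 4-fold the medians were 68.0% for rises and 91.1% for falls. Under 50% was present at 6 h in 25 of the 60 such rises and in 7 of the 74 such falls. These counts rest on means of 2 replicas and were not tested, and the same 3 h and 9 h arrays define the change and its parts.

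**Figure D5:**
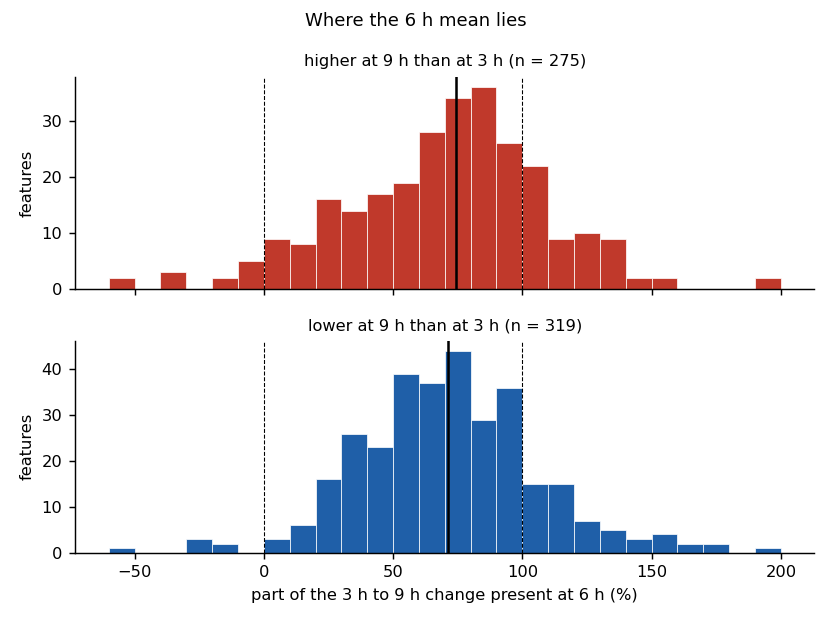
Number of features (vertical axes) by the part of their 3 h to 9 h change that was present at 6 h (horizontal axis, percent), for the 275 that rose (top) and the 319 that fell (bottom). Dashed lines mark the 3 h level (0) and the 9 h level (100), the thick lines are the medians of 74.4% and 71.1%, and values beyond the axis are drawn in the end bars.

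Features that changed in the same direction also lay beside each other in the genome. In the order of genes in the RefSeq table, 57 of the 275 that rose (20.7%) had an adjacent gene that rose, where 5.76% of all genes in the table had one. Of the 319 that fell, 110 (34.5%) had an adjacent gene that fell, where 6.51% of all genes had one. Runs of 3 or more consecutive genes that rose numbered 7, with 23 genes, and runs that fell numbered 12, with 44 genes. Of the 10 largest rises 5 lay in such runs, against 23 of all 275 that rose. Some of these 5 shared a run, so they are not separate cases. Of the 10 largest falls 3 lay in runs, against 44 of all 319 that fell. Neighbours can share regulatory sequence, and probes of overlapping transcripts can pick up each other's RNA; the part of either was not tested.

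The genes axe1, cip1 and cel61a formed 1 of the runs that fell. Their levels at 3 h were 14.98, 14.10 and 14.14, and those at 9 h 10.97, 10.88 and 12.51. The genes on either side of the run, TRIRE2_102500 and TRIRE2_102504, differed by -0.27 and -0.11 and did not pass the test. TRIRE2_102504 lay within the background range at both times, where a fall could not be seen. A second run of falls held chi18-8 together with TRIRE2_108348, TRIRE2_108349 and TRIRE2_29993, whose differences were -2.22, -1.98, -4.32 and -1.24. The longest run of all had 5 genes, from TRIRE2_75015 to TRIRE2_55105. In this run the fall was gradual, with between 32.3% and 53.1% of it present at 6 h. Its gene TRIRE2_55062 was at 12.71 ± 0.053 at 3 h, 11.52 ± 0.032 at 6 h and 9.75 ± 0.056 at 9 h, a 7.81-fold difference (limma adjusted p = 6.08e-06).

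Among the runs that rose, TRIRE2_58285, TRIRE2_58289, TRIRE2_76204 and TRIRE2_58953 lay side by side and included the 2 largest rises. Their differences were 3.25, 5.73, 1.48 and 5.21. Another run of 4 genes consisted of TRIRE2_73618, TRIRE2_73621, TRIRE2_73623 and TRIRE2_43701. All of these rose, by 1.56, 1.95, 3.71 and 4.73, and in each over 50% of the rise was present at 6 h. The run of TRIRE2_82208, TRIRE2_52476 and TRIRE2_124079 differed from these in time. Its members rose by 4.18, 3.53 and 3.04, and 14.9%, 24.2% and -0.03% of that was present at 6 h. The replicas of TRIRE2_124079 were at 4.22 and 4.29 at 3 h, at background, and at 6.93 and 7.64 at 9 h. A further run held ooc1 with TRIRE2_122975 and TRIRE2_66077, which rose by 1.38 and 2.22.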

How the data were processed

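The values the authors deposited are log2 expression from RMA, per the submitters' processing notes. This method subtracts background, gives every array the same distribution by quantile normalization and combines the probes of a gene. A change in total RNA therefore cannot be seen. The deposited table gives a log2 mean per time, an SD score per time and 1 p-value per feature. The deposited p-value was matched within 1% in 9015 of 9126 features (98.8%) by a Benjamini-Hochberg adjusted analysis of variance over 4 times with 2 replicas, and in 14 features assuming 3, so the deposited SD score was taken as that of 2 replicas. The second deposited table held the same means. Versions and genome build are not given in the sources used here.

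The residual variance of the 3 sporulating times (3 degrees of freedom) was passed to limma 3.58.1 in R 4.3.3 (contrasts.fit form and eBayes, prior degrees of freedom 3.94). Features were called at adjusted p under 0.05 and 2-fold. Intervals at 95% use its moderated SE. The median SE of a difference was 0.12, and 2 arrays per time limit the precision. In data simulated for 9 h against 3 h over 9126 features, 95 of 100 features changed by 2 log2 units and 1 of 8926 unchanged ones were called. Of 100 features changed by 1 log2 unit, 70 passed the adjusted p and 47 were called. That change equals the fold threshold, so noise alone puts many such features under it. The simulation drew normal noise with 1 SD per feature at all 3 times, so its rates need not hold for these arrays.

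Of 9122 TRIRE2 identifiers 9094 were in the RefSeq table of the QM6a assembly v2.0 and 235 had a symbol. That table's order gave the neighbours; a start that dropped began a new scaffold. The features and lists were chosen with earlier results of these data known, and the histone, glycolysis and glycogen lists were put together from the table's symbols after it was opened. Named genes are list members, every symbol called, the 10 largest rises and falls whose higher mean lay above background and whose replicas did not overlap, and members of runs of neighbours; the choice among runs was made after their values were seen. Some single genes are not reported here. Planned protein and promoter measures were not analysed here.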

Additional observations from a re-analysis of the deposited data

How the results depend on the processing

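With the values as deposited, 275 features rose and 319 fell. At 1.5-fold 715 rose and 729 fell, at 4-fold 60 and 74, with no fold threshold 1223 and 1158, and by limma's treat test against a 2-fold change 84 and 129. Without the features below the 25th percentile of mean level (9.63), which left 6844, the count that rose was 155 and the count that fell stayed within 1.5 times, at 213. Both counts also stayed within 1.5 times with all 4 times in the fit, with 3 h and 9 h alone, with median centring, quantile normalization or a trended prior. They did so too with the nearest replicas 2-fold apart, at 186 and 240, and without features at background, an alternative chosen after seeing the data. The ordinary test called fewer, 185 and 244, still within 1.5 times, so the calls depended in part on the moderated variance. The authors' deposited p-value with 2-fold gave 260 and 297. That p-value covers all 4 times, 0 h included, so it does not test 9 h against 3 h. Of 184 genes of the lists and the largest changes, none changed direction among those called under the 6 alternatives run on them; cel1b and man5a passed 2-fold with median centring, and mata1 and xdh1 lost their call under the ordinary test. Leaving out 1 replica in turn was not run, since the table gives means and SDs and does not tell which replica value belongs to which array. No paired analysis was possible because the table carries no replica numbers. Levels within the background range give no exact fold, and with 2 arrays per time the median SE of a difference was 0.12.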
